A study of Homo sapiens with 6 samples.

Results

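The genes described here encode the lower part of glycolysis, from aldolase to lactate: ALDOA and ALDOC (aldolases), TPI1 (triosephosphate isomerase), GAPDH (glyceraldehyde-3-phosphate dehydrogenase), PGK1 (phosphoglycerate kinase), PGAM1 (phosphoglycerate mutase), ENO1 and ENO2 (enolases) and LDHA and LDHB (the subunits of lactate dehydrogenase). They were taken by symbol from a table of expression values. All 10 were found among its 17468 genes, and all 10 were among the 11129 genes tested. Levels are in FPKM, which counts fragments relative to transcript length and library size, so genes are compared per length.

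The study asked what knockdown of ETV1, an ETS-family transcription factor, does to gene expression in melanoma cells. A375 and Colo800, 2 human melanoma lines, were infected with virus carrying a scrambled hairpin, ETV1-sh1 or ETV1-sh2, and RNA was sequenced 4 days later. The table has 1 library per line and hairpin, 6 in all, and the sources used here do not say whether a library pools the duplicate infections named in the design. The sample labels also carry a treatment that the design does not mention: DMSO for the ETV1-sh1 samples, 5 nM trametinib (a MEK inhibitor) for ETV1-sh2 and 1 uM of a drug spelled vemurafinib (the BRAF inhibitor vemurafenib) for scrambled, and their protocol speaks of siRNA followed by drug. If the labels hold, a drug and a hairpin cannot be told apart in any comparison of hairpins below. ETV1 itself was at 82.8 FPKM in A375 with the scrambled hairpin, 34.6 for ETV1-sh1 and 3.46 for ETV1-sh2. In Colo800 it was at 180.3, 54.6 and 9.80 FPKM. Both hairpins thus left less ETV1 in both lines, and ETV1-sh2 left the least.

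Glycolysis splits glucose into 2 molecules of pyruvate. In its lower part aldolase cuts the sugar, GAPDH oxidises the product, PGK1 makes ATP from it, and PGAM1 and enolase lead towards pyruvate. Lactate dehydrogenase then turns pyruvate into lactate and returns the NAD+ that GAPDH needs. The active enzyme is a tetramer of LDHA and LDHB subunits, and LDHA-rich forms are the ones usually linked to lactate production. Most of these genes are known targets of MYC and of hypoxia-inducible factor, and melanoma cells are known for high aerobic glycolysis.

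GAPDH was the most abundant of the 10 genes in all 6 libraries, at 2755 to 4479.5 FPKM, and PGK1 was second in all 6, at 1185 to 1876. ALDOA, TPI1, ENO1, LDHA and LDHB lay between 152 and 1463 FPKM and changed places with one another from library to library. ALDOC, PGAM1 and ENO2 were the lowest in every library, at 5.79 to 39.6 FPKM. Together the 10 genes made up 1.09% to 1.54% of all FPKM. The sum of the 10 was 8832, 7389 and 6413 FPKM in A375 with scrambled, ETV1-sh1 and ETV1-sh2, and 10888, 9992 and 7484 FPKM in Colo800. The sum was thus highest with the scrambled hairpin and lowest with ETV1-sh2 in both lines. Among the isoforms of other tissues, PGK2 (testis), PGAM4 and LDHAL6A were under 1 FPKM in every library, and muscle enolase ENO3 was at 8.47 to 14.3. Others exceeded 1 FPKM in A375 though not in Colo800. GAPDHS reached 1.25 with scrambled, and LDHC, LDHD and PGAM2 reached 1.85, 1.65 and 17.4 with ETV1-sh2.

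**Figure D1:**
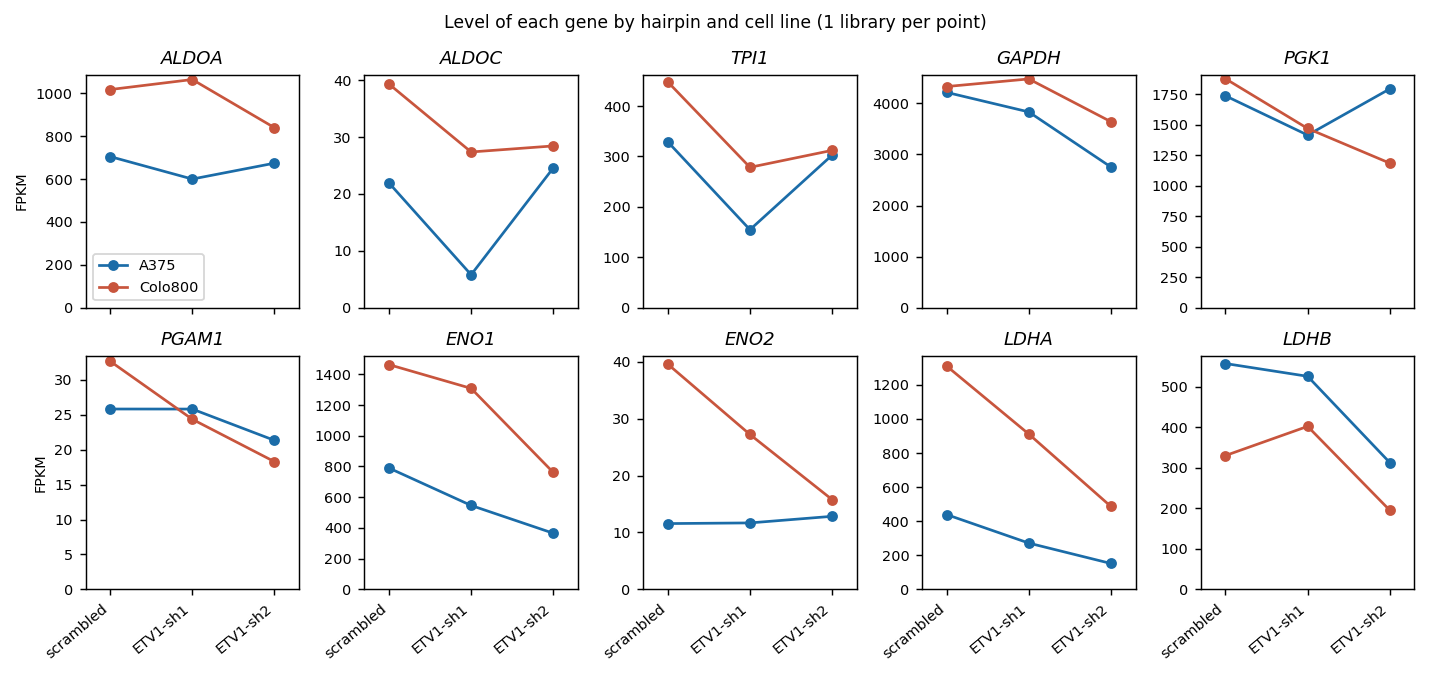
FPKM (vertical axes, linear, from 0) of each of the 10 genes by hairpin (horizontal axis) in A375 (blue) and Colo800 (red); each point is 1 library and lines only join the libraries of a line. LDHA and ENO1 step down from scrambled to ETV1-sh1 to ETV1-sh2 in both lines, whereas ALDOC and TPI1 are lowest with ETV1-sh1.

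Of the lactate dehydrogenase and enolase genes, LDHA, ENO1 and LDHB passed the test for ETV1-sh2 given below. The 250 bases before their annotated starts are shown for reference, because these members passed that test. They are RefSeq promoter windows on GRCh38.p14, 5′ to 3′ on the gene's strand; the expression table was made on hg19. LDHA has windows for 2 starts. Capitals mark ACGTG or its reverse complement CACGT, the core that hypoxia-inducible factor recognises, which also lies within the E-box CACGTG of the MYC family, and CCGGAA or TTCCGG, a core of many ETS sites.
LDHA, first start, chr11:18394313-18394562 (+ strand): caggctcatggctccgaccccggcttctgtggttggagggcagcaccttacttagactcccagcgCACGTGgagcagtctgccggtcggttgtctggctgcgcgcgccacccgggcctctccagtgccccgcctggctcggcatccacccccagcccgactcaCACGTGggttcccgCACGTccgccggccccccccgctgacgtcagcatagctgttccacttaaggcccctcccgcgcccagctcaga
LDHA, second start, chr11:18396101-18396350 (+ strand): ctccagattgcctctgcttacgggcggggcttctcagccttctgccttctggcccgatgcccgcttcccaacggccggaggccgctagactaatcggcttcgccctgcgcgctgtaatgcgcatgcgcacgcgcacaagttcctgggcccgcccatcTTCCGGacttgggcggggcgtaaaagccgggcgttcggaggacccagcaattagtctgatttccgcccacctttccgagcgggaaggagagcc
ENO1, chr1:8878687-8878936 (- strand): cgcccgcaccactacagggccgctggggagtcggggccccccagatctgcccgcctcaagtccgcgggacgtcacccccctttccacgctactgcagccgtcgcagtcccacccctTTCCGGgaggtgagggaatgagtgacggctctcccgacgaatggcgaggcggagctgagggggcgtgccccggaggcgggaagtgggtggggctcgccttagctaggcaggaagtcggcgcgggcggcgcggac
LDHB, chr12:21657843-21658092 (- strand): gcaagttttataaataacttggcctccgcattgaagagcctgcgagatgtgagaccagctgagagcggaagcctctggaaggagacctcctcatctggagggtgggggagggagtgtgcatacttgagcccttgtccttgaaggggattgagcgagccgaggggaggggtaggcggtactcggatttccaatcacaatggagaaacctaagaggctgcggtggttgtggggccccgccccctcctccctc

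The first LDHA window held the E-box CACGTG at 2 places, starting 185 and 87 bases before the start, and a further CACGT starting 73 bases before it. The second LDHA window held none of these and 1 TTCCGG, 93 bases before its start. ENO1 held 1 TTCCGG, 134 bases before the start, and LDHB held no motif searched. Among all 35116 windows of this length, searched on both strands, ACGTG occurred in 18.5%, CACGTG in 6.34% and CCGGAA in 14.5%. Among the 14 windows of the 10 genes (3 for ALDOA, 2 each for TPI1 and LDHA) it was 9, 4 and 2. These are letter matches and say nothing of binding.

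Both ETV1 hairpins were first pooled against scrambled, with the line as a block (limma on log2(FPKM + 1), 4 libraries against 2). All 10 fitted changes were negative, as were 5401 of the 11129 genes tested. The median of the 10 was -0.39, against 0.01 over all genes tested. The 10 share the same libraries, so their signs are not independent. None of the 10 passed an adjusted p of 0.05, and over all genes 0% passed; at an unadjusted p under 0.05 there were 1204 genes, among them 1 of the 10, LDHA. LDHA had the largest fitted change, -1.04 (SE 0.343, adjusted p = 0.409), followed by ENO1 at -0.69 (SE 0.297) and ALDOC at -0.64 (SE 0.502). In this fit the gap between the hairpins counts as error. Library by library, 4 of the 10 genes (TPI1, PGAM1, ENO1 and LDHA) were below their line's scrambled library in 4 of 4 ETV1 hairpin libraries, against 16.8% of all genes tested. None was above it in 4 of 4, against 19.7%.

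LDHA, the subunit linked to lactate production, stood at 439 FPKM in A375 with scrambled, 271 for ETV1-sh1 and 152 for ETV1-sh2. In Colo800 it stood at 1310.5, 911 and 486 FPKM. The step was alike in both lines: ETV1-sh1 left 61.9% of the scrambled level in A375 and 69.5% in Colo800, and ETV1-sh2 left 34.6% and 37.1%. With ETV1-sh2 the fitted log2 change of LDHA was -1.48 (SE 0.150), a fall that passed in limma (adjusted p = 0.00806). With ETV1-sh1 it was -0.61 (SE 0.150) and did not pass (adjusted p = 0.105).

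ENO1, the main enolase of these cells (93.1% to 97.2% of the FPKM of ENO1, ENO2 and ENO3), had 789.6 FPKM in scrambled A375, then 546 for ETV1-sh1 and 365 for ETV1-sh2. The Colo800 values in the same order were 1463, 1308 and 761 FPKM. Its order was that of LDHA, with a smaller step for ETV1-sh1 in Colo800. It fell with ETV1-sh2 by 1.03 on the log2 scale (SE 0.165, adjusted p = 0.0166) and did not pass with ETV1-sh1, where the change was -0.35 (SE 0.165, adjusted p = 0.321).

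LDHB, the other subunit, behaved differently with ETV1-sh1. Its A375 values were 558 FPKM for scrambled, 526 for ETV1-sh1 and 313 for ETV1-sh2; those of Colo800 were 331, 403 and 195. ETV1-sh1 lay close to scrambled in A375 and above it in Colo800, and ETV1-sh2 was the lowest in both lines. The fitted log2 change was 0.10 (SE 0.165, adjusted p = 0.779) with ETV1-sh1. With ETV1-sh2 LDHB fell, by 0.79 (SE 0.165, adjusted p = 0.0281).

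With ETV1-sh2, 3 of the 10 genes fell (LDHA, ENO1 and LDHB), where 9.00% of all genes did, and none rose, where 7.73% did. The median over the 10 was -0.48, against 0.05 over all genes tested. With ETV1-sh1 none of the 10 passed in either direction; over all genes 1.51% fell and 0.773% rose, and at an unadjusted p under 0.05 there were 3 of the 10 and 2095 of all genes. The 2 comparisons share the scrambled libraries, so ETV1-sh2 was also set directly against ETV1-sh1. LDHB was lower with ETV1-sh2 by 0.89 on the log2 scale (SE 0.165, adjusted p = 0.0226), LDHA by 0.87 (SE 0.150, adjusted p = 0.0188) and ENO1 by 0.68 (SE 0.165, adjusted p = 0.0455). No member was higher past the threshold; over all genes 6.91% were lower and 6.82% higher. Scrambled above ETV1-sh1 above ETV1-sh2 in both lines was the order of 3 of the 10 (LDHA, ENO1 and PGAM1), against 8.11% of all genes, and for PGAM1 the first step in A375 was 25.8 against 25.8 FPKM.

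These calls rest on 2 residual degrees of freedom, and single libraries decide them. With no filter on low values none of the 3 passed for ETV1-sh2 against scrambled (adjusted p 0.0638 for LDHA, 0.0776 for ENO1, 0.0852 for LDHB) or against ETV1-sh1 (0.0727, 0.137 and 0.0782). Without the A375 scrambled library the ETV1-sh2 change was -1.41 for LDHA (adjusted p = 0.0586), -0.89 for ENO1 (0.130) and -0.68 for LDHB (0.211), so that none passed, and without the Colo800 scrambled library it was -1.16 for ENO1 (adjusted p = 0.0673) and -0.90 for LDHB (0.117), leaving LDHA. LDHB also missed without the A375 ETV1-sh2 library (-0.85, adjusted p = 0.0585) or the Colo800 one (-0.74, adjusted p = 0.0670). The ENO1 difference between hairpins passed in none of the 6 fits that left out 1 library (adjusted p 0.0762 to 0.169), nor with no variance trend (0.0666). That of LDHA missed without the A375 ETV1-sh1 (adjusted p = 0.102), A375 ETV1-sh2 (0.0538) or Colo800 ETV1-sh1 library (0.101), and that of LDHB without the A375 (0.0996) or Colo800 ETV1-sh1 library (0.112).

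**Figure D2:**
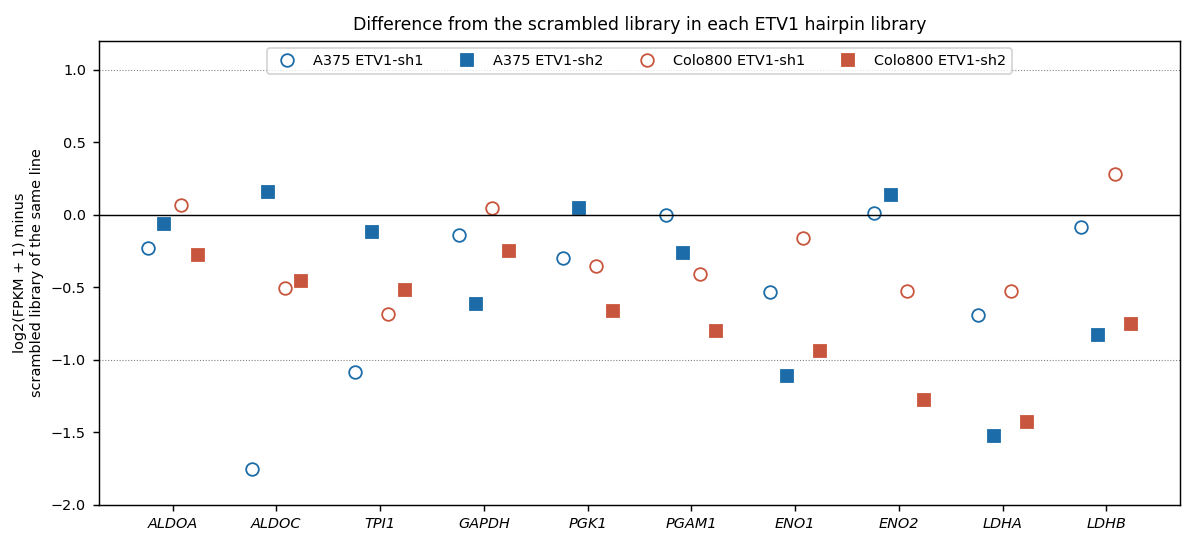
Difference in log2(FPKM + 1) between each ETV1 hairpin library and the scrambled library of its line (vertical axis; dotted lines at 1 and -1) for the 10 genes; circles are ETV1-sh1, squares ETV1-sh2, blue A375 and red Colo800, 1 library each. The 4 LDHA points lie between -1.53 and -0.52, and the lowest point of all is ALDOC in A375 with ETV1-sh1, at -1.76.

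ALDOC and TPI1 had another order. ALDOC, the aldolase known from brain, had 21.9 FPKM in scrambled A375, 5.79 for ETV1-sh1 and 24.6 for ETV1-sh2. In Colo800 the values were 39.3, 27.4 and 28.5. In A375 only the ETV1-sh1 library was low, and in Colo800 both ETV1 hairpin libraries were below scrambled at a like level. The fitted log2 change was -1.13 (SE 0.411, adjusted p = 0.218) with ETV1-sh1 and -0.15 (SE 0.411, adjusted p = 0.821) with ETV1-sh2. TPI1, which interconverts the aldolase products, was at 329, 155 and 303 FPKM in A375 and at 448, 278 and 312 in Colo800, lowest with ETV1-sh1 in both lines. Its fitted change was -0.88 (SE 0.216, adjusted p = 0.103) with ETV1-sh1 and -0.32 (SE 0.216, adjusted p = 0.327) with ETV1-sh2. Neither gene passed in these fits. In a fit of the ETV1-sh1 and scrambled libraries alone, with 1 residual degree of freedom, both did (limma adjusted p = 0.0216 for TPI1 and 0.0383 for ALDOC). Leaving out either ETV1-sh2 library gives the same ETV1-sh1 difference and residual, because the remaining ETV1-sh2 library is fitted exactly. Those fits are therefore no further check. The direct difference between the hairpins did not pass for ALDOC (0.98, SE 0.411, adjusted p = 0.153) or TPI1 (0.56, SE 0.216, adjusted p = 0.127). Both passed without the Colo800 ETV1-sh2 library (1.60, adjusted p = 0.0164, and 0.86, adjusted p = 0.0418).

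GAPDH and PGK1 make NADH and ATP in the middle of the pathway. GAPDH was at 4216, 3833 and 2755 FPKM in A375 (scrambled, ETV1-sh1, ETV1-sh2) and at 4331, 4479.5 and 3642 in Colo800. ETV1-sh2 gave the lowest value in each line, at 65.3% and 84.1% of scrambled, with a fitted change of -0.43 (SE 0.173, adjusted p = 0.132). GAPDH is often used as a reference for other transcripts; set against it, LDHA was 0.104 of GAPDH in scrambled A375 and 0.0551 with ETV1-sh2, and 0.303 and 0.134 in Colo800. Of the 14 other customary reference genes, 3 fell with ETV1-sh2, where 9.00% of all genes did: TUBB (-1.66), YWHAZ (-1.58) and PPIA (-0.68). PGK1 was at 1736, 1415 and 1793 FPKM in A375 and at 1876, 1469 and 1185 in Colo800. Its lowest library was thus ETV1-sh1 in one line and ETV1-sh2 in the other, and the fitted changes were -0.32 and -0.31 (SE 0.218 each).

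ALDOA, the main aldolase, was at 705, 599.8 and 674 FPKM in A375 and at 1017, 1064 and 839 in Colo800. It moved least of the 10 over both hairpins (-0.13, SE 0.198). PGAM1 was at 25.8, 25.8 and 21.3 FPKM in A375 and at 32.7, 24.4 and 18.3 in Colo800, with a fitted change of -0.53 (SE 0.196, adjusted p = 0.109) with ETV1-sh2. ENO2, the enolase known from neurons and neuroendocrine cells, was at 11.6, 11.7 and 12.8 FPKM in A375 and at 39.6, 27.2 and 15.8 in Colo800. In A375 the 3 libraries lay together, and in Colo800 ETV1-sh2 left 39.9% of scrambled. Its difference in hairpin effect between lines was -0.98 (SE 0.631), the largest of the 10. It did not pass (adjusted p = 1.00), nor did any gene in that limma fit (0% of all genes; 66 at an unadjusted p under 0.05, none of the 10). The other 9 differences lay between -0.47 and 0.32. With ETV1-sh2 the ENO2 change was -0.57 (adjusted p = 0.261), and it passed without the A375 ETV1-sh2 library (-1.14, adjusted p = 0.0338).

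The rest of the pathway was read from lists. Of 11 tested genes of glucose uptake and upper glycolysis, 2 fell for ETV1-sh1 and 4 for ETV1-sh2, against 1.51% and 9.00% of all genes, and none rose. The glucose transporter SLC2A1 fell with ETV1-sh1 (-1.83, SE 0.185, adjusted p = 0.0197) but was at -0.32 (adjusted p = 0.257) with ETV1-sh2. PFKFB4, an enzyme that sets the level of the phosphofructokinase activator fructose 2,6-bisphosphate, did the reverse, with 0.21 (adjusted p = 0.680) and -2.44 (SE 0.237, adjusted p = 0.00806). For each the hairpins differed in the direct test (1.50, adjusted p = 0.00912, and -2.64, adjusted p = 0.00650). PFKFB3, its relative, fell with both (-1.46 and -1.08), and HK2 (-1.36) and PFKP (-0.60) fell with ETV1-sh2. With ETV1-sh1 HK2 (-1.39, limma adjusted p = 0.0801) and PFKP (-0.54, adjusted p = 0.139) changed by a like amount but did not pass. Their direct differences between hairpins were 0.02 and -0.06. The medians of this list were -0.21 and -0.32.

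Among 19 tested genes of pyruvate and lactate handling, ETV1-sh1 had 1 that fell, against 1.51% of all genes. For ETV1-sh2, 2 fell and 2 rose, close to the 9.00% and 7.73% of all genes that did. DLAT, a core subunit of pyruvate dehydrogenase, fell with ETV1-sh1 (-1.63, adjusted p = 0.0209). With ETV1-sh2 the lactate transporter gene SLC16A1 fell (-0.90, adjusted p = 0.0216) and SLC16A3, the transporter of lactate-exporting cells, rose (0.88, adjusted p = 0.0380). PDK1, which inhibits pyruvate dehydrogenase, fell (-0.94, adjusted p = 0.0284) and its relative PDK2 rose (1.25, adjusted p = 0.0130). With ETV1-sh1 SLC16A1 (-0.36), SLC16A3 (0.77), PDK1 (-0.13) and PDK2 (0.83) went the same way and did not pass. Of these only PDK1 passed in the direct test of the hairpins (-0.81, limma adjusted p = 0.0455). In the serine branch PHGDH (-1.08) and PSAT1 (-2.24) fell with ETV1-sh2 and PSAT1 (-1.92) with ETV1-sh1. These were 2 and 1 of 5 tested, against 9.00% and 1.51% of all genes. PHGDH was at -0.64 with ETV1-sh1 (limma adjusted p = 0.202). Of 12 tested regulators MYC alone passed, with ETV1-sh2 (-2.26, SE 0.218, adjusted p = 0.00806), where 9.00% of all genes fell. MYC was at 14.8, 6.38 and 1.76 FPKM in A375 and at 52.7, 38.4 and 12.4 in Colo800, the order of LDHA. HIF1A was at -0.35 (adjusted p = 0.171).

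**Figure D3:**
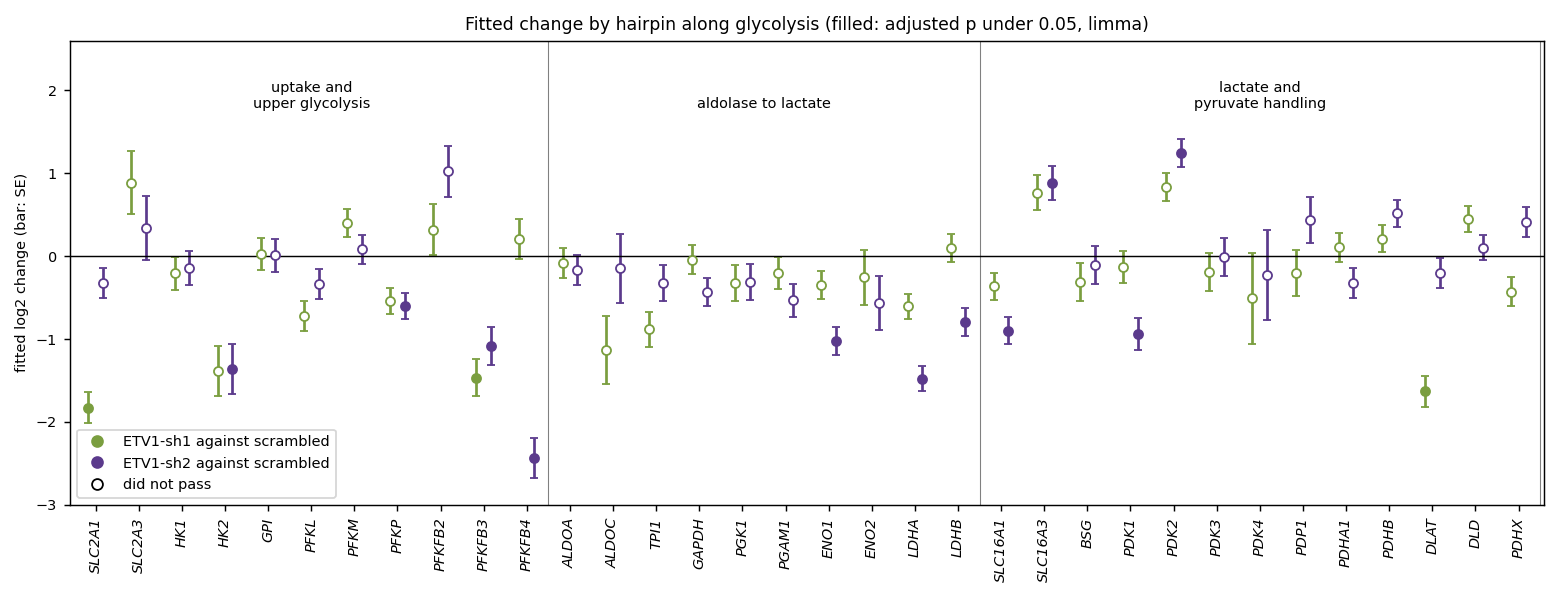
Fitted log2 change (vertical axis; bars are SE) with ETV1-sh1 (green) and ETV1-sh2 (purple) against scrambled, limma with 3 hairpin levels over 6 libraries, for tested genes of glucose uptake and upper glycolysis, the 10 genes and the main genes of lactate and pyruvate handling; filled points passed an adjusted p of 0.05. In the middle block LDHA, ENO1 and LDHB are filled for ETV1-sh2 and none for ETV1-sh1.

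Colo800 was then set against A375 over matched hairpins (3 libraries each). Of the 10 genes 5 were higher in Colo800 and 1 lower, where 31.8% of all genes were higher and 25.3% lower. LDHA differed most, by 1.66 on the log2 scale (SE 0.123, adjusted p = 0.000251), with 486 to 1310.5 FPKM in Colo800 and 152 to 439 in A375. ENO1 (1.07, SE 0.135, adjusted p = 0.00123), ENO2 (1.04, SE 0.268, adjusted p = 0.0170), ALDOC (1.03, SE 0.335, adjusted p = 0.0385) and ALDOA (0.56, SE 0.147, adjusted p = 0.0183) were also higher. LDHB went the other way, by -0.61 (SE 0.135, adjusted p = 0.009995). TPI1 (0.44, adjusted p = 0.0703), GAPDH (0.22, adjusted p = 0.219), PGAM1 (0.01, adjusted p = 0.956) and PGK1 (-0.14, adjusted p = 0.516) did not pass. All 3 Colo800 libraries lay above all 3 A375 libraries for LDHA, ALDOA, ENO2 and ALDOC, 4 of the 10 against 26.2% of all genes. None of the 10 lay wholly below, against 21.6%: the highest LDHB value in Colo800 (403 FPKM, ETV1-sh1) was above the lowest in A375 (313, ETV1-sh2).

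Ribosomal protein and mitochondrially encoded genes took 20.8% to 22.7% of the FPKM in A375 and 13.3% to 16.8% in Colo800. Scaled to the sum of the other genes, the median of all genes shifted by -0.27, and ALDOA (0.27, adjusted p = 0.117) and ALDOC (0.76, adjusted p = 0.0866) no longer passed. LDHA (1.38), ENO1 (0.78), ENO2 (0.77) and LDHB (-0.89) did, and GAPDH (-0.06) and PGAM1 (-0.26) changed sign. With no filter on low values LDHA, ENO1 and LDHB passed. Without 1 library the count of 6 was 2 to 7. It was 2 (LDHA and ENO1) without either scrambled library, 3 (those and LDHB) without either ETV1-sh1 library and 7 (TPI1 added) without either ETV1-sh2 library. Within each such pair the fitted line difference is the same by design. The library left over for that hairpin is fitted exactly and carries nothing on the lines. Of the upper glycolysis list 7 of 11 were higher in Colo800 and 1 lower (PFKM, muscle phosphofructokinase, -0.83), where 31.8% and 25.3% of all genes were. Of the pyruvate and lactate list 6 of 19 were higher and 4 lower, close to those shares of all genes. MYC (2.15, adjusted p = 0.000325) and HIF1A (1.60, adjusted p = 0.000303) were higher. Of the other isoforms, BPGM (0.57) was higher and ENO3 (-0.49) was lower. PGAM2 was also called lower, but it passed the filter on low values through A375 alone, mostly through the ETV1-sh2 library (17.4 FPKM), so its call is not read as a difference.

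**Figure D4:**
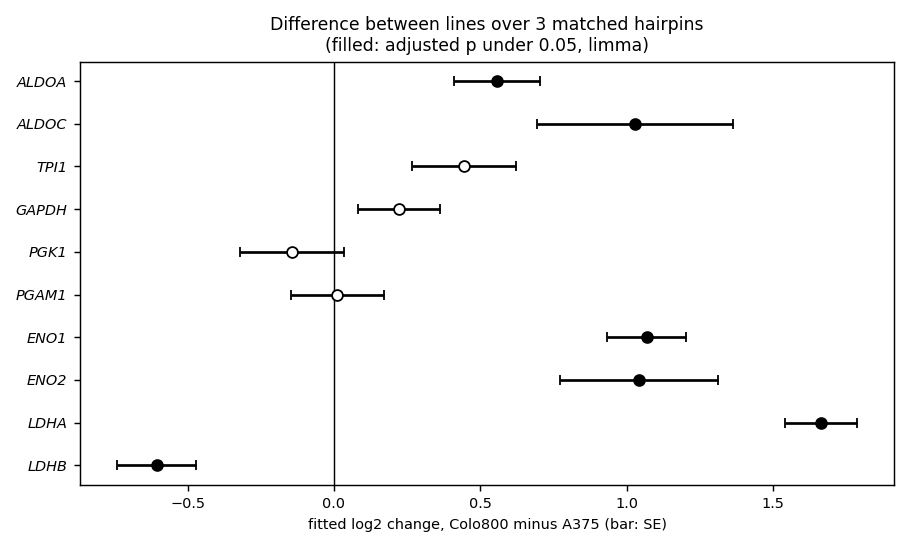
Fitted log2 difference of each gene between lines (horizontal axis, Colo800 minus A375; bars are SE) from limma with 3 libraries per line; filled points passed an adjusted p of 0.05. LDHA lies farthest to the right, at 1.66, and LDHB is the filled point to the left, at -0.61.

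The lactate dehydrogenase subunits therefore stood in opposite proportion in the lines. LDHA per LDHB was 0.786 in A375 scrambled, 0.516 for ETV1-sh1 and 0.484 for ETV1-sh2, and 3.96, 2.26 and 2.49 in Colo800. LDHB exceeded LDHA in all 3 A375 libraries and LDHA exceeded LDHB in all 3 Colo800 libraries. LDHA made up 32.6% to 44.0% of the 2 in A375 and 69.4% to 79.9% in Colo800. This ratio does not depend on library scaling. It was lower with each hairpin than with scrambled in both lines, by 0.61 to 0.81 on the log2 scale, and was not tested. The sum of both subunits was 997, 798 and 465 FPKM in A375 and 1641, 1314 and 682 in Colo800.

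**Figure D5:**
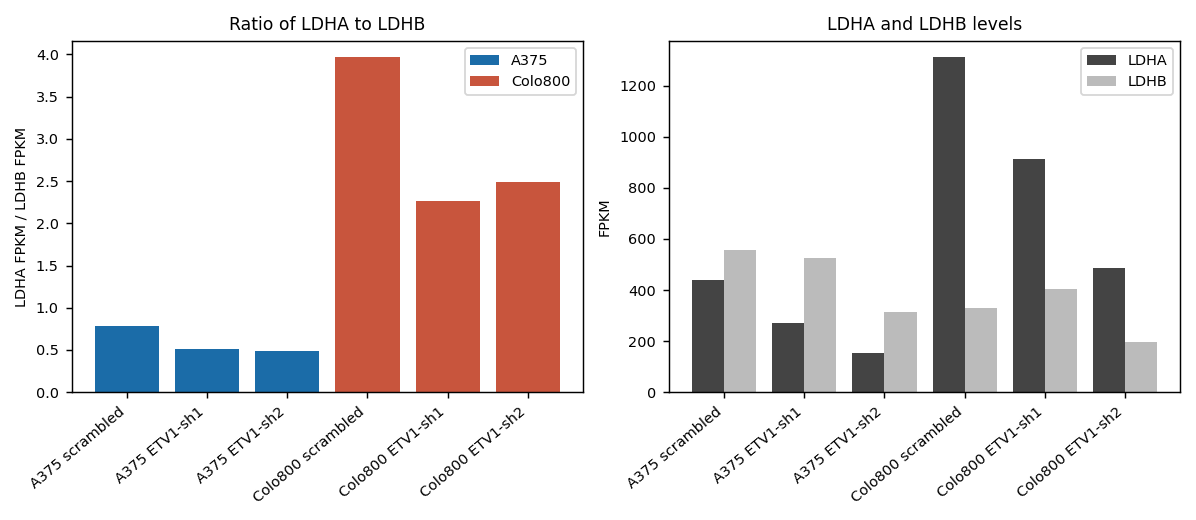
Left, FPKM of LDHA divided by that of LDHB in each library (bars from 0; A375 blue, Colo800 red). Right, the FPKM of LDHA (dark) and LDHB (light) in the same libraries; the ratio is under 1 in A375 and between 2.26 and 3.96 in Colo800.

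The genes most like LDHA in level over the 6 libraries were HOXA3, a homeobox factor (Pearson r = 0.999), LUC7L2, EVI5, GTF2A1, a subunit of TFIIA, and BLM, a RecQ helicase (r = 0.996 to 0.997). The points share their lines and libraries, so r carries both the line and the hairpin differences. HOXA3 was at 18.1, 10.5 and 4.43 FPKM in A375 and at 70.6, 42.3 and 22.02 in Colo800.

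Several whole-library features bear on these values. Depth relative to the A375 scrambled library, read from steps among low values, was 0.769 to 2.10 and was highest for A375 ETV1-sh2. This estimate is rough. Of the genes compared, 7.19% (A375 ETV1-sh2) to 9.88% (A375 ETV1-sh1) lay at the commonest ratio. SOX10, a melanocyte lineage factor, was at 353 to 712 FPKM throughout, but the pigment gene TYR was at most 0.0758 FPKM and DCT at most 0.0657 in A375, against at least 14.8 and 70.8 in Colo800. Of 6 tested melanocyte markers 1, S100B, fell with ETV1-sh1 (-1.70) and ETV1-sh2 (-1.06), where 1.51% and 9.00% of all genes fell. None of the 6 rose. The list's fitted changes ran from -1.70 to 0.67 and from -1.06 to 0.22. TYR, DCT and TYRP1 passed the filter on low values through Colo800 alone, so their fitted changes average Colo800 changes with A375 values under 1 FPKM. The upper ends were those of TYR (0.67) and TYRP1 (0.22). For S100B, SOX10 and MITF the changes ran from -1.70 to -0.42 and from -1.06 to -0.41. Of the fibroblast markers 3 of 4 tested rose with ETV1-sh2 (COL1A1, PDGFRB and LUM), where 7.73% of all genes did. The sum of the 7 on that list was 13.4 FPKM in scrambled A375 and 36.1 with ETV1-sh2, and 11.6 and 31.7 in Colo800. COL3A1 was at 0.106 FPKM or less throughout. COL1A2 was at 0.0726 or less in A375, and in Colo800 it was lower with ETV1-sh2 (1.32) than with scrambled (1.78). Of the keratinocyte, endothelial and leukocyte markers tested, none passed with either hairpin. CD68 was at 87.5 FPKM in scrambled A375 and 305.6 with ETV1-sh2, but at 103.9 and 76.6 in Colo800. KRT14 was at 9.72 and 1.94 FPKM in A375 and at 0.372 and 0.555 in Colo800, in the same order. The part of these markers in the falls of LDHA, ENO1 and LDHB was not tested. In bulk RNA, fewer cells of a kind and less RNA per cell cannot be told apart. GENCODE release 29 names 95 pseudogenes of these genes, 62 of GAPDH, 13 of PGAM1 and 6 of LDHA, none of which has a row in the table, so how reads of such copies were counted is unknown. Genes overlap 9 of the 10 members (for TPI1 SPSB2 on the opposite strand, for ENO1 its antisense gene), and the sources used here do not give the strandedness.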

How the data were processed

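RNA sequencing covered 6 libraries, 1 per cell line and hairpin. The authors aligned reads with STAR 2.4 and made the deposited FPKM values with Cufflinks 2.2.1 and Cuffnorm on hg19, per the submitters' processing notes. The sources used here do not give the annotation, scaling or filters. Absolute depth is unknown; relative depth came from the commonest ratio among values of 0.0001 to 0.3 FPKM. Tests used limma 3.58.1 in R 4.3.3 (lmFit, then eBayes with trended variance). They ran on log2(FPKM + 1) for the 11129 genes averaging 1 FPKM or more, with Benjamini-Hochberg adjustment over all of them and a threshold of 0.05. A fold change on this scale understates that of low genes. Knockdown used the line as a block (3 residual degrees of freedom). Single hairpins and lines came from a fit with 3 hairpin levels (2 residual degrees of freedom). The difference in hairpin effect between lines came from a mean per line and knockdown state (also 2). The pooled knockdown fit was checked on simulated data with a common spread for all genes. The other fits, which gave every call for a member, were not checked in this way. Nothing in the labels says that the cultures were separate, and p-values rest on no repeat of a condition. In the fit with 3 hairpin levels the residual is the disagreement of the lines over the hairpins. The gap between hairpins enters the residual of the pooled fit and of the fit for the difference in hairpin effect. Technical and biological spread cannot be told apart. Members and lists were chosen with earlier results of these data known. All members were named. From other lists, genes past the threshold for a hairpin against scrambled were named, and those of the other comparisons only in part. For LDHA, the member with the largest line difference, the 5 most correlated genes were named. Isoforms and markers given only by level were picked outside these rules. PKM, MPC1, MPC2, TIGAR, PMEL and PECAM1 were not analysed here. Alternatives changed the pseudocount, filter, scaling, variance model and libraries.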

Additional observations from a re-analysis of the deposited data

Results flagged for a closer look

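ENO2 was singled out because both ETV1 hairpin libraries lay above scrambled in A375 and below it in Colo800. In A375 its log2(FPKM + 1) was above scrambled by 0.0133 with ETV1-sh1 and by 0.139 with ETV1-sh2, and in Colo800 the differences were -0.524 and -1.27. The A375 differences are small (11.6 to 12.8 FPKM in all), and the limma interaction term did not pass (-0.98, SE 0.631).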

How the results depend on the processing

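Numbers of members past the threshold changed as follows. With no filter on low values they were 0 in place of 3 for ETV1-sh2 against scrambled, 0 in place of 3 for ETV1-sh2 against ETV1-sh1 and 3 in place of 6 for Colo800 against A375. With only the ETV1-sh1 and scrambled libraries 2 members passed in place of 0. For ETV1-sh1 against scrambled, leaving out either ETV1-sh2 library amounts to that same fit. Leaving out 1 library gave 0 to 2 for ETV1-sh1 against scrambled, 0 to 3 for ETV1-sh2 against scrambled, 0 to 4 for ETV1-sh2 against ETV1-sh1 and 2 to 7 for Colo800 against A375; the cause was not tested beyond the smaller number of libraries. For both hairpins together and for the difference in hairpin effect between lines, the count was 0 under each alternative run. Over all genes, the counts of 254 (ETV1-sh1), 1862 (ETV1-sh2) and 1528 (between hairpins) became 0 with no filter, 119 for ETV1-sh1 with no variance trend, and 805 and 890 for each hairpin with scrambled alone; without 1 library they were 0 to 834, 83 to 1974 and 0 to 1739. The interaction could not be fitted without a scrambled library. With the ribosomal protein and mitochondrial genes set aside in scaling, the signs that changed were those of GAPDH with ETV1-sh1 (0.0282) and of GAPDH (-0.0645) and PGAM1 (-0.264) between lines; median-of-ratios scaling changed that of PGAM1 between lines (-0.0638) and of PGK1 between hairpins (-0.0317). In the scrambled libraries alone PGK1 was 0.112 higher in Colo800. Leaving out 1 library gave both signs for the genes named next. For ETV1-sh1 against scrambled the ranges were -0.285 to 0.118 for ALDOA, -0.182 to 0.0933 for GAPDH, -0.442 to 0.0324 for PGAM1, -0.743 to 0.232 for ENO2 and -0.0651 to 0.265 for LDHB. For ETV1-sh2 against scrambled they were -0.351 to 0.00986 for ALDOA, -0.766 to 0.469 for ALDOC, -0.649 to 0.0322 for PGK1 and -1.14 to 0.00514 for ENO2. Between hairpins they were -0.289 to 0.115 for ALDOA, -0.324 to 0.356 for PGK1 and -0.885 to 0.261 for ENO2, between lines -0.146 to 0.123 for PGAM1 and -0.272 to 0.0831 for PGK1, and for both hairpins -0.899 to 0.0764 for ENO2. LDHA kept its sign under each alternative run in the comparisons of hairpins and of lines. Depth in reads is unknown, so low values carry no interval.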
